A study of Mus musculus with 18 samples.

Results

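Matrix metalloproteinases (MMPs), the ADAMTS proteases (secreted metalloproteinases with thrombospondin repeats) and the tissue inhibitors of metalloproteinases (TIMPs) were followed in lipochondrocytes, the lipid-storing chondrocytes of mouse external ear cartilage, and in fat cells. Members were all rows of the deposited expression table with an Mmp symbol, an Adamts symbol followed by a number, or Timp1 to Timp4. They came to 46 of 46983 genes, made up of 23 MMP, 19 ADAMTS and 4 TIMP genes. The 18 libraries fell into 6 groups of 3: lipochondrocytes at postnatal day 8, 10, 13, 21 and 33 (P8, P10, P13, P21 and P33) and adipocytes from inguinal fat at day 33. The labels give every group, adipocytes included, the genotype Wnt1-Cre2;TdTomato and the C57BL/6 background. Wnt1-Cre2 marks cells of neural crest origin, and only the P8, P10 and P13 cells were sorted for high TdTomato. At P21 and P33, and for fat, the cells that floated after a spin were taken, without a sort. Tissue of every group was digested first, with 1% collagenase II given for the ear, and the P21 and P33 dissections were made to leave fat cells out. The labels do not say whether the 3 libraries of a group were separate animals or pools, so p-values here measure only the spread between libraries, which may be technical.

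MMPs are zinc-dependent proteases that are made as inactive precursors and cut collagens, gelatin, elastin and proteoglycans. ADAMTS proteases fall into groups with different substrates: some remove the amino-terminal propeptide of procollagens, others cleave aggrecan and versican. TIMPs bind the active site of these enzymes, and TIMP2 also takes part in the activation of pro-MMP2 by the membrane-bound MMP14 on the cell surface. In cartilage the balance of proteases and inhibitors is best known from growth plate remodelling, where Mmp13 and Mmp9 act, and from the loss of aggrecan in joint disease, where Adamts4 and Adamts5 are studied.

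The cells matched their labels for most defining markers. The summed level of 11 cartilage markers was 18845 to 30632 FPKM (a level in fragments corrected for gene length and depth) in the 15 lipochondrocyte libraries and 1.28 to 2.27 in adipocytes. Cytl1 led this sum, with lipochondrocyte group means of 9460 to 18500 FPKM. In each lipochondrocyte group 10 of the 11 had a mean of 1 FPKM or more. Within the sum, Col2a1 went from a mean of 5100 FPKM at P8 to 223 at P33. The cartilage gene Matn1 was listed at 0 in all libraries of P21, P33 and adipocytes. The 10 adipocyte markers summed to 4.89 to 28.7 FPKM in lipochondrocytes and to at least 90825 in adipocytes. Total reads ran from 12461965 to 27640142 per library. FPKM carry no read counts, so no counting error is given and a value of 0 does not show absence.

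Of the 46 members, 26 reached 1 FPKM or more in 3 or more of the 18 libraries, the filter used, and were tested: 11 MMP, 11 ADAMTS and all 4 TIMP genes. Of these, 6 (Mmp9, Mmp12, Mmp15, Mmp19, Adamts4 and Adamts9) passed through the adipocyte libraries alone and so had to be lower in lipochondrocytes. Mmp3, Mmp16, Adamts3, Adamts8, Adamts14, Adamts17 and Adamts19 passed through lipochondrocyte libraries alone. Means of 5 FPKM or more in at least 1 group were reached by 20 members.

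Of the 20 members under the filter, 8 belong to 1 gene cluster. The 10 MMP genes of this cluster (Mmp13, Mmp12, Mmp1b, Mmp3, Mmp1a, Mmp10, Mmp8, Mmp27, Mmp20 and Mmp7) lie on chromosome 9 within 427.1 kb, from 7272514 to 7699585 of GRCm38 (mm10). Mmp13, Mmp1b, Mmp1a, Mmp10, Mmp20 and Mmp7 were listed at 0 in all 15 lipochondrocyte libraries. Mmp13, the collagenase of hypertrophic cartilage, reached 0.06, 0.16 and 0.07 FPKM in the adipocyte libraries, and Mmp8, the neutrophil collagenase, reached 0.03 FPKM in 1 P21 library. Mmp3 and Mmp12 were the 2 genes of the cluster that passed the filter.

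The sequence at the start sites is shown because the cluster and the other members differed in its letters. Promoter windows of 300 bases (250 before and 50 after the start) from RefSeq, build GRCm38.p6, were held for 32 of the 46 members, in 35 windows. No window was used for Adamts4, Adamts5, Adamts6, Adamts7, Adamts8, Adamts10, Adamts15, Adamts16, Adamts19, Mmp2, Mmp9, Mmp16, Mmp17 and Mmp19. The AP-1 pattern TGANTCA, whose reverse complement is itself, was in 8 of the 35 windows (22.9%) and in 7.8% of 32851 windows of all genes. All 8 belonged to the chromosome 9 cluster (Mmp1a, Mmp1b, Mmp3, Mmp7, Mmp10, Mmp12, Mmp13 and Mmp20). The TATA box pattern TATAAA, searched on both strands, was in 9 of the 10 cluster genes and in 2 of the other 22 members with a window (Adamts1 and Mmp21), against 13.6% of all windows. The GC box pattern GGGCGG, searched on both strands, was in none of the cluster genes and in 18 of the other 22, against 35.7% of all windows. Windows of the cluster held 37.7% to 52% G and C, and those of the other members 53.3% to 80%. The windows shown are 2 from genes abundant in lipochondrocytes and 2 from the cluster. Capitals mark every match to the 3 patterns, which share no bases with each other here; a match is a string of letters and not a shown binding site.
Timp3, chr10:86300162-86300461, plus strand: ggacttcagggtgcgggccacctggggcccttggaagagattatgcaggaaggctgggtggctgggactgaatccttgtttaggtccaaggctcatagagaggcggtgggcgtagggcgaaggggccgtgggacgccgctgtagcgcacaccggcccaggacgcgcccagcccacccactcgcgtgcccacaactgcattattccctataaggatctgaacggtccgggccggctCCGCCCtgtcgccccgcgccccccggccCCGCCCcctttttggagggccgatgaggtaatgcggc
Mmp14, chr14:54431348-54431647, plus strand: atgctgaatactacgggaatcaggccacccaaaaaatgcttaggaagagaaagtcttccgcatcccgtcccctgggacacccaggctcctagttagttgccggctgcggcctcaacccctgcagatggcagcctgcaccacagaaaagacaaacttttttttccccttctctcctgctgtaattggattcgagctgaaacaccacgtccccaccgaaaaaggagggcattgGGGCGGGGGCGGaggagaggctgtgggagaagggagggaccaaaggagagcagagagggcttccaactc
Mmp13, chr9:7272264-7272563, plus strand: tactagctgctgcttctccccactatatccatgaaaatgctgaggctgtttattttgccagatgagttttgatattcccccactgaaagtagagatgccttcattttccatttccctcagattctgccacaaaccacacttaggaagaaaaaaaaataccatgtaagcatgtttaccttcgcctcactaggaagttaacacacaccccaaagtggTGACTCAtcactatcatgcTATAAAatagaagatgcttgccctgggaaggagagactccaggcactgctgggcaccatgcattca
Mmp3, chr9:7445572-7445871, plus strand: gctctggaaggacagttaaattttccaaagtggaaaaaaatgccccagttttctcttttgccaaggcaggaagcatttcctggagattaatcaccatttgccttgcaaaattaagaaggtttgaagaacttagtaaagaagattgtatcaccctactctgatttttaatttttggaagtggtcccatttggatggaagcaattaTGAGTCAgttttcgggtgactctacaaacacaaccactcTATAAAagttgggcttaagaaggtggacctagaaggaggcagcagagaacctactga
The first base of the AP-1 match lay at -35 from the start site in Mmp13 and at -46 in Mmp3. Timp3 and Mmp14 carried GC box matches and neither of the other patterns.

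**Figure D1:**
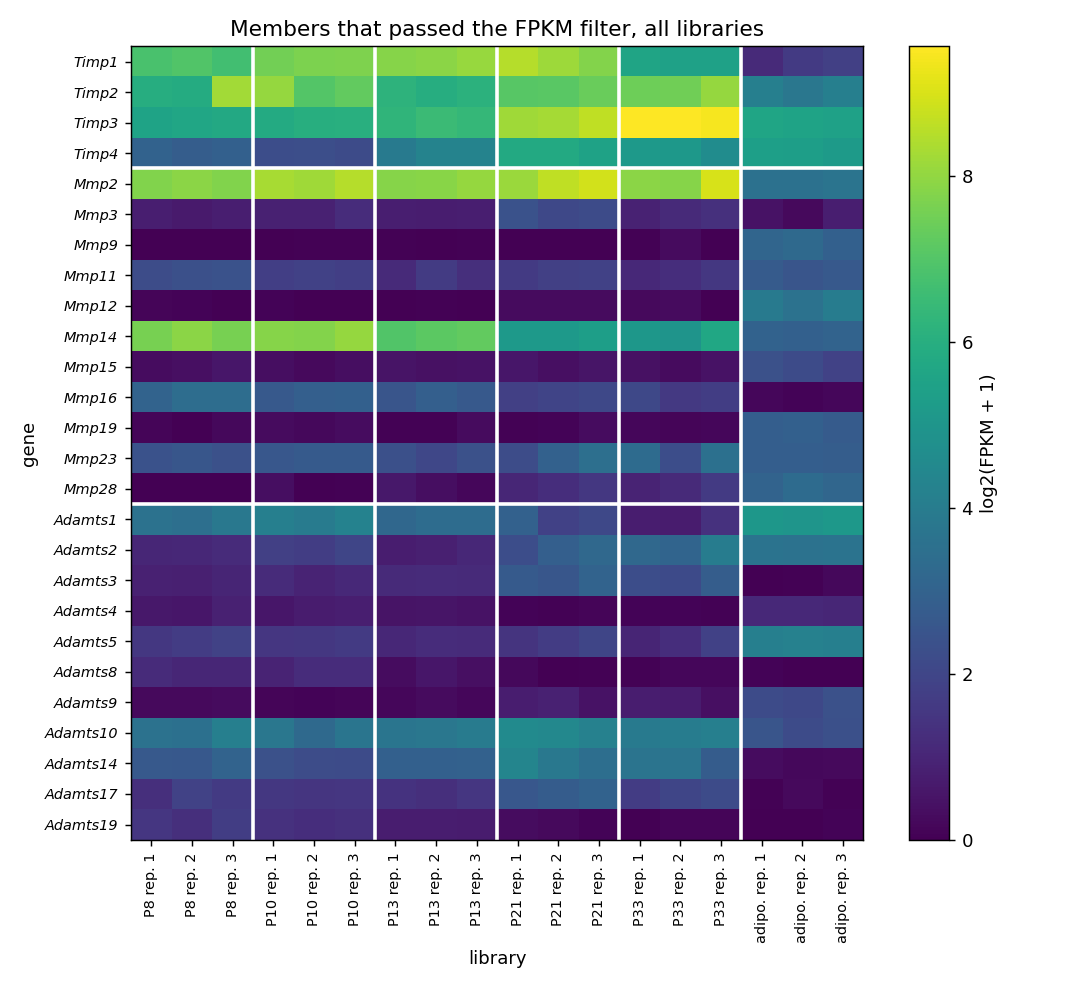
Level of the 26 members that passed the filter (rows, grouped as TIMP, MMP and ADAMTS) in each of the 18 libraries (columns, grouped by stage), as log2(FPKM + 1). Timp1, Timp2, Timp3, Mmp2 and Mmp14 are bright in the lipochondrocyte libraries, while Mmp9, Mmp12, Mmp19 and Adamts5 are brightest in adipocytes.

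The most abundant inhibitor differed between the groups. Timp1 led the inhibitors in all libraries of P13 and Timp3 in all of P33 and of adipocytes, while the lead was mixed among the replicates of P8, P10 and P21. Age and isolation changed together from P13 to P21 for every gene, so their shares in that step cannot be told apart. Timp3, an inhibitor that is held in the matrix and also acts on ADAMTS enzymes (ENSMUSG00000020044.13, chromosome 10:86300372 to 86349506), stood at 46.2, 49.8 and 53.5 FPKM at P8. It was at 57, 62.1 and 64.1 at P10 and at 76.45, 90.2 and 82.3 at P13. It then stood at 295, 311 and 398 at P21 and at 751, 756 and 697 at P33, against 48.7, 46.3 and 43.2 in adipocytes. No neighbouring stages overlapped, while the P8 and adipocyte values did. On the log2(FPKM + 1) scale, Timp3 rose by 0.72 from P8 to P13 (SE 0.11, adjusted p = 0.0013), by 1.99 from P13 to P21 (SE 0.11, adjusted p = 6e-09) and by 1.14 from P21 to P33 (SE 0.11, adjusted p = 1.48e-05). All p-values come from limma with Benjamini-Hochberg adjustment over all 13815 genes tested, and genes are called at an adjusted p below 0.05. The smaller step from P10 to P13 (0.43, adjusted p = 0.0126) was lost when libraries were rescaled by the median of ratios (0.16, adjusted p = 0.35), without P10 replicate 1 (adjusted p = 0.0602) and without P13 replicate 2 (adjusted p = 0.0623).

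Timp1, a soluble inhibitor (ENSMUSG00000001131.11, chromosome X:20870166 to 20874735), took another course. It was at 112, 125 and 101 FPKM at P8, at 182, 203 and 209 at P10, at 225, 237 and 268 at P13 and at 357, 284 and 221 at P21. At P33 it stood at 47.4, 43.2 and 43.4, below every younger library, and in adipocytes at 1.2, 2.07 and 2.5. Timp1 rose by 0.81 from P8 to P10 (SE 0.18, adjusted p = 0.0113), was not called between P13 and P21 (0.22, adjusted p = 0.349) and fell by 2.63 from P21 to P33 (SE 0.18, adjusted p = 7.72e-07). Between P21 and P33, both collected as floating cells, Timp1 and Timp3 changed in opposite directions, each beyond its spread.

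Timp4, the inhibitor otherwise known from heart and fat (ENSMUSG00000030317.8, chromosome 6:115241892 to 115252205), had its lowest values at P10, with 3.76, 3.94 and 3.55 FPKM, against 6.98, 6.01 and 6.63 at P8. It stood at 14.35, 18.25 and 18.2 at P13, at 54.6, 55.4 and 44.7 at P21, at 33.8, 33.7 and 24.4 at P33 and at 41.7, 40.3 and 35.9 in adipocytes. The P21 libraries lay above all adipocyte libraries and the P33 libraries below them. Timp4 rose by 1.91 from P10 to P13 (SE 0.14, adjusted p = 3.14e-07) and by 1.55 from P13 to P21 (SE 0.14, adjusted p = 5.27e-07), and fell by 0.74 from P21 to P33 (SE 0.14, adjusted p = 0.00268), a call that ended when the other groups were left out of the model (adjusted p = 0.127). The fall from P8 to P10 (-0.67, adjusted p = 0.00839) was lost under median-of-ratios scaling (adjusted p = 0.116).

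Timp2, the partner of Mmp14 and Mmp2 (ENSMUSG00000017466.9, chromosome 11:118301069 to 118355740), was uneven among the replicates of P8 and P10. At P8 it stood at 62 and 57.6 FPKM in replicates 1 and 2 but at 304 in replicate 3, and at P10 at 267, 127 and 155. Values were 71, 61.9 and 70 at P13, 136, 136 and 165 at P21, 173, 180 and 268 at P33 and 16.4, 12.9 and 16.7 in adipocytes. P8 replicate 3 differed from its group in other genes too: 55 genes above 20 FPKM were over 3 times the level of both other P8 libraries, against 7 to 46 such genes in the remaining libraries. With this library, Timp2 was not called between P8 and P10 (0.75, SE 0.47, adjusted p = 0.317), and without it Timp2 rose by 1.52 (SE 0.26, adjusted p = 0.00427). The difference of -1.35 from P10 to P13 lay at the threshold (adjusted p = 0.0502, and 0.0205 to 0.204 over the alternatives run).

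**Figure D2:**
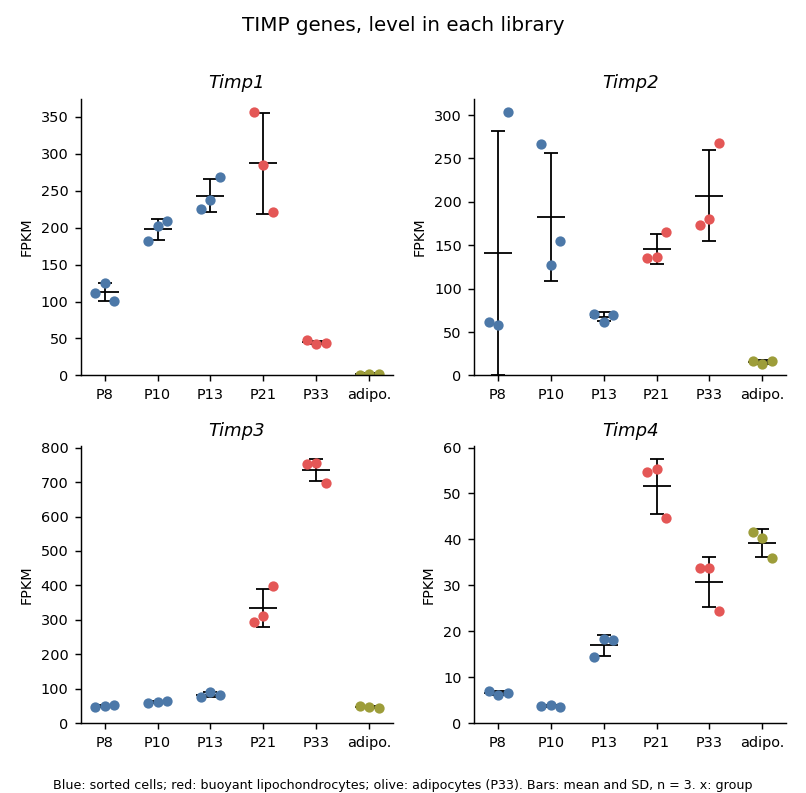
FPKM (y axis, linear from 0) of the 4 TIMP genes in each library, by group (x axis); points are libraries, bars the mean and SD of 3. Timp3 reaches 697 to 756 at P33, where Timp1 has fallen to 43.2 to 47.4, and 1 P8 library of Timp2 stands at 304.

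Summed over the family, the ratio of inhibitors to MMPs was higher in every P21 and P33 library than in any sorted one. FPKM are per length, so levels of different genes may be set side by side. The summed TIMP level per summed MMP level was 0.528, 0.48 and 1.089 at P8, 0.908, 0.748 and 0.674 at P10 and 1.07, 1.049 and 1.016 at P13. It was 2.582, 1.735 and 1.521 at P21, 3.517, 3.776 and 1.78 at P33 and 1.523, 1.49 and 1.393 in adipocytes. The high P8 and the low P33 value belong to replicate 3 of each. P21 replicate 3 lay within the adipocyte range. Without Timp2 the P8 values were 0.384, 0.364 and 0.377, P21 stood at 2.166, 1.435 and 1.218, P33 at 2.911, 3.104 and 1.319 and adipocytes at 1.292, 1.301 and 1.156. Timp3 made up 67.53% to 74.7% of the summed TIMP level at P33, 35.01% to 48.05% at P21 and 11.19% to 22.15% in the sorted libraries. These sums describe transcripts and were not tested.

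Among the proteases, Mmp2 and Mmp14 took nearly all of the summed MMP level in lipochondrocytes, 94.33% to 97.42% per library against 25.16% to 27.32% in adipocytes. Mmp14, the membrane-anchored collagenase that activates pro-MMP2 (ENSMUSG00000000957.9, chromosome 14:54431612 to 54445364), was at 196, 239 and 194 FPKM at P8 and at 226, 222 and 263 at P10. It stood at 126, 143 and 153 at P13, at 34.5, 34.4 and 40.4 at P21, at 32.15, 30.3 and 51.1 at P33 and at 7.1, 6.63 and 7.35 in adipocytes. Every sorted library lay above every floating one. Mmp14 fell by 0.75 from P10 to P13 (SE 0.16, adjusted p = 0.00479) and by 1.92 from P13 to P21 (SE 0.16, adjusted p = 4.47e-07), and was not called between P21 and P33 (0.02, adjusted p = 0.981). Isolation changes together with age between P13 and P21, so their shares in this step cannot be told apart. Between P8 and P13, both sorted, the difference was -0.57 (adjusted p = 0.0703, and 0.04 with a replicate block).

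Mmp2, the gelatinase that cuts denatured collagen (ENSMUSG00000031740.7, chromosome 8:92827291 to 92853420), kept a high level at all stages. It was at 217, 238 and 213 FPKM at P8, at 320, 291 and 361 at P10, at 224, 232 and 265 at P13, at 277, 402 and 482 at P21, at 238, 228 and 510 at P33 and at 10.7, 10.9 and 11.9 in adipocytes. Its difference between P13 and P21 (0.65, SE 0.25, adjusted p = 0.0496) lay at the threshold, and 10 of 15 alternatives ended the call, among them median-of-ratios scaling (0.20, adjusted p = 0.618). The level of Mmp2 per Mmp14 was 1 to 1.78 in the sorted libraries and 7.39 to 11.93 at P21 and P33. In bulk RNA, fewer cells of a type and less RNA per cell cannot be told apart.

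Within most groups, the libraries stood in the same order in Mmp2 as in the markers of fibroblasts and perichondrium. The summed level of 14 such markers was 5371, 8193 and 9886 FPKM in P21 replicates 1 to 3 and 6275, 5276 and 9450 in P33 replicates 1 to 3, so that P33 replicate 3, with 510 FPKM of Mmp2, was also the highest of its group in these markers. The order of the 3 libraries in Mmp2 equalled that in the marker sum in 5 of 6 groups, all but P8. Adamts2 did so in 5 groups as well, all but adipocytes, and among the other tested members Mmp19 did so in 4 and none in more. Orders of 3 libraries can match by chance, and all 26 tested members were looked at. The adipocyte sums lay close together, at 437 to 450 FPKM. Between groups the match did not hold throughout. The marker sum was 3711 to 5130 FPKM at P8 and 2265 to 2927 at P13, where the means of Mmp2 were 222 and 241. None of the 14 markers was listed at 0 in all libraries of a lipochondrocyte group, and they include Col1a1 and Col3a1, which other matrix-making cells also express. The part of these markers in the levels of Mmp2 and Adamts2 was not tested.

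Mmp16, Mmp3 and Mmp11 were present at lower levels. Mmp16, a membrane-type enzyme like Mmp14, went from 7.3, 9.66 and 9.63 FPKM at P8 through 5.32, 6.35 and 6.68 at P10 and 4.68, 6.39 and 5.42 at P13 to 2.53, 2.85 and 3.21 at P21. It stood at 3.24, 2.02 and 2.36 at P33 and was at 0.06 to 0.13 in adipocytes. It fell by 0.75 from P13 to P21 (SE 0.15, adjusted p = 0.000944), with no overlap between the groups. Mmp3, stromelysin, stood at 0.63 to 1.31 FPKM in all sorted libraries, at 4.35, 3.17 and 3.53 at P21 and at 0.89, 1.23 and 1.51 at P33. It rose by 1.43 into P21 (SE 0.15, adjusted p = 2.76e-06) and fell by 1.09 from P21 to P33 (SE 0.15, adjusted p = 0.000235, and 0.0634 with only these 2 groups modelled). Mmp11, which is cut by furin inside the cell, was at 3.63, 4 and 4.3 FPKM at P8, at 2.45, 2.65 and 2.45 at P10 and at 1.19, 2.18 and 1.46 at P13. At P21 it stood at 2.07, 2.48 and 2.6, at P33 at 1.17, 1.41 and 1.95 and in adipocytes at 5.72, 4.7 and 5.32. From P8 to P13 this was a fall of 0.95 (SE 0.14, adjusted p = 0.000979, and 0.0647 with only these 2 groups modelled). Its calls for the single steps from P8 to P10, P10 to P13 and P13 to P21 were each lost under 7 or more of 14 alternatives. The span of Mmp11 overlaps that of Chchd10 on the opposite strand, which reached 252 FPKM, and whether counting used strand is not given in the sources used here.

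Mmp23 and Mmp28 reached 1 FPKM in lipochondrocytes as well. Mmp23, a membrane enzyme without the usual hemopexin domain, ranged from 3.1 to 10.41 FPKM over all 18 libraries and was called in none of the 6 comparisons. At P21 its libraries stood at 3.66, 6.78 and 10.2 and at P33 at 9.04, 3.82 and 10.4. Without P21 replicate 1 it was called from P13 to P21 (0.98, adjusted p = 0.0124). Mmp28, epilysin, was listed at 0 in all P8 libraries and stood at 0.11 to 0.55 at P13, at 1.03, 1.37 and 1.95 at P21, at 0.96, 1.18 and 2.1 at P33 and at 7.33, 9.14 and 7.82 in adipocytes. It rose by 0.90 from P13 to P21 (SE 0.18, adjusted p = 0.00113).

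**Figure D3:**
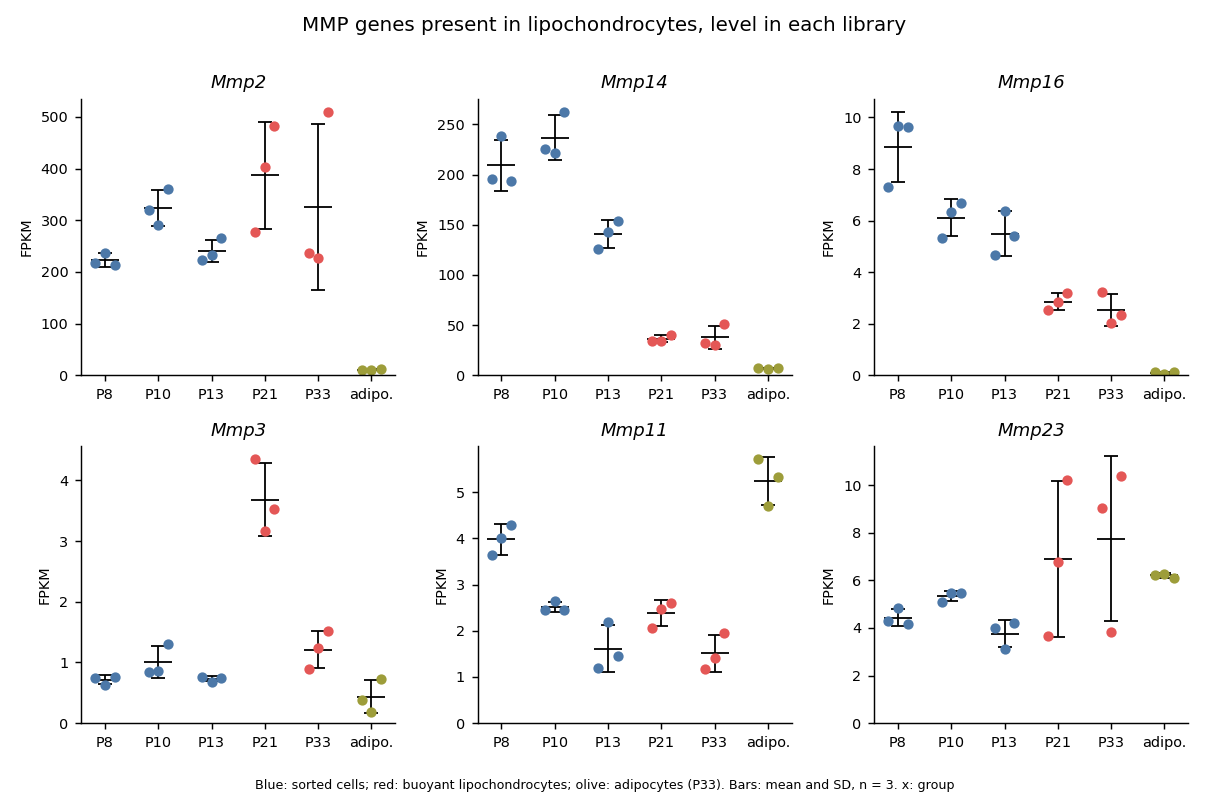
FPKM (y axis, linear from 0) of Mmp2, Mmp14, Mmp16, Mmp3, Mmp11 and Mmp23 in each library by group (x axis); points are libraries, bars the mean and SD of 3. Mmp14 drops from 126 to 153 at P13 to 34.4 to 40.4 at P21, Mmp2 is at 213 or more in all lipochondrocyte libraries, and Mmp3 is highest at P21.

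The procollagen N-proteinases, Adamts2, Adamts3 and Adamts14, rose together from P13 to P21. Adamts2, which processes fibrillar procollagens such as collagen I and III, stood at 1.04, 1.11 and 1.26 FPKM at P8, at 2.48, 2.31 and 3 at P10 and at 0.71, 0.81 and 1.11 at P13. It was at 3.73, 6.39 and 8.31 at P21, at 8.36, 7.52 and 15.1 at P33 and at 11.4, 11.2 and 11.5 in adipocytes. The P10 libraries lay above both neighbours, and no P13 library reached the lowest P21 value. Adamts2 rose by 1.88 from P13 to P21 (SE 0.23, adjusted p = 1.88e-05) after a fall of 0.94 from P10 to P13 (adjusted p = 0.00999, and 0.0559 with a pseudocount of 3). The fibroblast and perichondrium marker sum moved with these steps, at 6577 to 8679 FPKM at P10, 2265 to 2927 at P13 and 5371 to 9886 at P21, and its part was not tested.

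Adamts3, an enzyme linked to procollagen II and to VEGF-C processing, was at 0.8 to 1.24 FPKM in all sorted libraries, at 5.56, 4.97 and 7.26 at P21 and at 3.76, 3.47 and 6.01 at P33, against 0.02 to 0.15 in adipocytes. It rose by 1.64 from P13 to P21 (SE 0.15, adjusted p = 1.21e-06). Adamts14 (ENSMUSG00000059901.12, chromosome 10:61197112 to 61273438) stood at 5.4, 5.25 and 7.29 FPKM at P8 and at 4.14, 3.69 and 3.52 at P10. It was at 6.7, 6.63 and 6.83 FPKM at P13, at 19.6, 13.1 and 9.9 at P21, at 11.7, 11.7 and 5.87 at P33 and at 0.14 to 0.26 in adipocytes. Its rise of 0.93 from P13 to P21 (SE 0.23, adjusted p = 0.0053) was lost under median-of-ratios scaling (0.52, adjusted p = 0.0828). Replicate 3, the lowest in Adamts14 at both P21 and P33, was the highest in Adamts2 at both. By its mean, Adamts14 was the leading N-proteinase at P8, P10, P13 and P21. At P33, Adamts2 (10.3 ± 4.13 FPKM) and Adamts14 (9.76 ± 3.37 FPKM, SD, n = 3) overlapped.

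Of the proteoglycan-cutting ADAMTS genes, Adamts1 led in the sorted cells. Adamts1, which cuts aggrecan and versican, stood at 11.2, 10.3 and 13.2 at P8, 16.6, 14.8 and 18 at P10 and 8.11, 9.33 and 9.3 at P13. It was at 6.8, 2.65 and 3.16 at P21, at 0.68, 0.67 and 1.59 at P33 and at 32.4, 30.8 and 33 in adipocytes. Adamts1 fell by 1.01 from P13 to P21 (SE 0.23, adjusted p = 0.00285) and by 1.34 from P21 to P33 (SE 0.23, adjusted p = 0.00176, and 0.16 with only these 2 groups modelled). Adamts5, the main aggrecanase of mouse joint cartilage, ranged from 0.98 to 2.98 FPKM over the 15 lipochondrocyte libraries, against 16.7, 17.45 and 16.6 in adipocytes. Adamts4, the other well-known aggrecanase, was at 0.39 to 0.85 in sorted libraries and at 0.04 to 0.1 at P21 and P33. Adamts8 fell from 0.94 to 1.32 FPKM at P10 to 0.24 to 0.5 at P13 (-0.70, SE 0.10, adjusted p = 0.000169), and Adamts9 stood at 0.07 to 0.86 in all lipochondrocyte libraries and at 3.55, 3.23 and 4.2 in adipocytes.

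The remaining ADAMTS genes included the pair bound to fibrillin microfibrils. Adamts10, which binds fibrillin, was at 8.68 to 16.3 FPKM in sorted libraries, 22.6, 21 and 17.4 at P21, 14.5, 15.3 and 16.3 at P33 and 4.77, 3.52 and 4.05 in adipocytes. Its rise of 0.57 from P13 to P21 (adjusted p = 0.0128) was lost under median-of-ratios scaling (0.15, adjusted p = 0.495), on rescaling without mitochondrial genes (adjusted p = 0.166) and without P21 replicate 1 (adjusted p = 0.0511). Adamts17, also tied to fibrillin, stood at 1.63, 1.46 and 1.85 at P13, at 5, 5.93 and 7.01 at P21 and at 2.27, 3.04 and 3.53 at P33, with 0.04 to 0.18 in adipocytes. It rose by 1.39 into P21 (SE 0.16, adjusted p = 6.74e-06) and fell by 0.83 to P33 (SE 0.16, adjusted p = 0.00337, and 0.124 with only these 2 groups modelled). Adamts19 declined over the sorted stages, from 1.42 to 2.35 FPKM at P8 to 0.64 to 0.72 at P13 (-0.76, SE 0.10, adjusted p = 0.000386, and 0.0638 with only these 2 groups modelled), and was at 0.24 or less from P21 on.

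**Figure D4:**
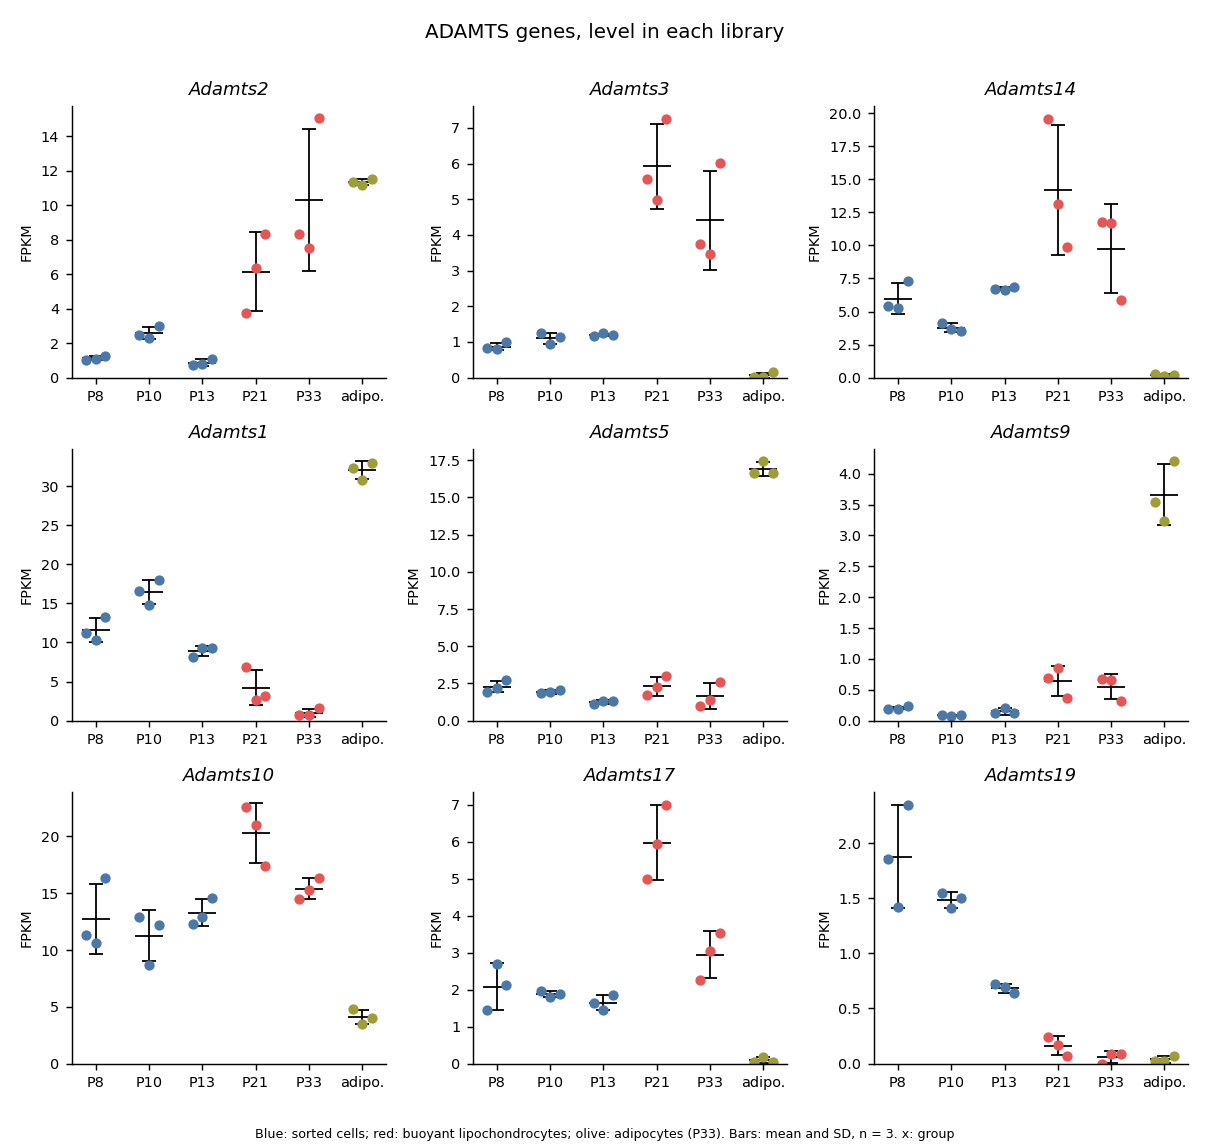
FPKM (y axis, linear from 0) of 9 ADAMTS genes in each library by group (x axis); the top row holds the procollagen N-proteinases, the middle row Adamts1, Adamts5 and Adamts9 and the bottom row Adamts10, Adamts17 and Adamts19. Adamts3 and Adamts17 stand higher in every P21 library than in any P13 library, and Adamts1 and Adamts5 are highest in adipocytes.

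Counted by comparison, the step from P13 to P21 held the most calls among the lipochondrocyte stages, for members and for all genes alike. There 19 of 26 members were called, 13 higher and 6 lower at P21, beside 43.1% of all genes tested, 36% higher and 7.04% lower. The members' median difference was 0.52 and that of all genes 0.29. The all-gene median became 0 under median-of-ratios scaling, and the members called were then 8 higher and 5 lower of 25, the rises being Adamts2, Adamts3, Adamts9, Adamts17, Mmp3, Mmp28, Timp3 and Timp4. All 11 tested ADAMTS genes were called in this step, 7 higher (Adamts2, Adamts3, Adamts5, Adamts9, Adamts10, Adamts14 and Adamts17) and 4 lower (Adamts1, Adamts4, Adamts8 and Adamts19). Of these, Adamts4, Adamts8, Adamts9 and Adamts19 had means under 1 FPKM at both stages, so their calls rest on low values. The rise of Adamts5 (0.55, adjusted p = 0.0262) was lost under 6 of 15 alternatives. Markers of other cells differed as well: skeletal muscle markers summed to 22.5 to 36.1 FPKM at P13 and 74.9 to 512 at P21, with 7 of 9 at a mean of 1 FPKM or more at P21, and macrophage markers to 4.65 to 5.45 and 21.3 to 36.3, with 7 of 12. Smooth muscle and pericyte markers were lower at P21, at 92.2 to 120.7 FPKM at P13 and 57.8 to 63.3 at P21. Their part in these changes was not tested.

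Fewer members changed within the sorted or within the floating stages. Between P8 and P10, 3 of 26 were called (Timp1 higher, Timp4 and Mmp11 lower), beside 11% of all genes, 1.9% higher and 9.14% lower. Median-of-ratios scaling moved the all-gene median of that comparison from -0.19 to 0.006, and the members called became 4 higher (Timp1, Timp3, Adamts1 and Adamts2) and 0 lower. Between P10 and P13, 9 were called, 3 higher (Timp3, Timp4 and Adamts14) and 6 lower (Mmp11, Mmp14, Adamts1, Adamts2, Adamts8 and Adamts19), beside 22.6% of all genes, 18.6% higher and 4.03% lower. With median-of-ratios scaling, which moved this all-gene median from 0.15 to 0, the split was 1 higher and 8 lower, and without P10 replicate 1 the count was 5. The Adamts14 rise (0.69, adjusted p = 0.0453) was lost under 10 of 15 alternatives and the Adamts1 fall (-0.82, adjusted p = 0.0202) under 4. From P8 to P13, 7 were called, 3 higher (Timp1, Timp3 and Timp4) and 4 lower (Mmp11, Mmp16, Adamts8 and Adamts19), beside 4.21% of all genes, 2.69% higher and 1.52% lower. The Mmp16 call (-0.60, adjusted p = 0.0301) was lost under 7 of 15 alternatives, and with only these 2 groups modelled 4 members were called. From P21 to P33, 6 were called, with Timp3 higher and Timp1, Timp4, Mmp3, Adamts1 and Adamts17 lower, beside 10% of all genes, 2.87% higher and 7.17% lower. Without P33 replicate 3 the count became 10, with Mmp2, Mmp11, Adamts3 and Adamts5 lower as well, and with only these 2 groups modelled it was 2, where 126 of 13815 genes were called.

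At P33, where age and collection matched, lipochondrocytes and adipocytes differed in the level of most members, as they did for most genes. Of 26 members, 22 were called, 11 higher and 11 lower in lipochondrocytes, beside 68.5% of all genes, 24% higher and 44.5% lower. Among the 11 lower were the 6 members that entered the test through the adipocyte libraries alone, whose direction was thereby fixed. The other 20 members gave 11 higher and 5 lower. Of those 11 higher, Adamts3, Adamts14, Adamts17, Mmp3 and Mmp16 entered through lipochondrocyte libraries alone, which favoured that direction. No lean to either side is read from these counts. The members' median was 0.06 and that of all genes -0.28, which median-of-ratios scaling moved to 0 with 11 members higher and 9 lower. Mitochondrial genes took 23.3% to 25.5% of the FPKM in adipocytes and 3.7% to 6% in lipochondrocytes, and rescaling without them gave 11 higher and 12 lower, with Adamts2 added (-0.65, adjusted p = 0.019). Higher in lipochondrocytes were Mmp2 by 4.64 (SE 0.25, adjusted p = 2.34e-10) and Mmp14 by 2.24 (SE 0.16, adjusted p = 8.5e-09). The inhibitors Timp1, Timp3 and Timp2 were higher by 3.99 (SE 0.18), 3.97 (SE 0.11) and 3.65 (SE 0.47), with adjusted p of 1.87e-11, 9.08e-14 and 4.86e-06. Of the ADAMTS genes, Adamts14 (3.12, SE 0.23), Adamts3 (2.32, SE 0.15), Adamts17 (1.85, SE 0.16) and Adamts10 (1.69, SE 0.17) were higher. Timp4 was lower by a margin that depended on scaling (-0.36, adjusted p = 0.0273; -0.02, adjusted p = 0.902 with median-of-ratios scaling), and lost its call in 5 of 15 alternatives.

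Mmp12, Mmp9 and Mmp19 entered the test through adipocytes alone, so their values are given as a description. Mmp12, the macrophage elastase, was at 0.19, 0.23 and 0.02 FPKM at P33 and at 14.15, 11.2 and 15.3 in adipocytes. Mmp9, a gelatinase of myeloid cells, was at 0.03, 0.22 and 0 against 7.72, 8.59 and 6.66, and Mmp19 at 0.1 to 0.13 against 5.73 to 6.6. Macrophage markers moved the same way: all 12 together summed to 39.3 to 73.1 FPKM at P33 and 872 to 943 in adipocytes, with none listed at 0 in either group. The 12 endothelial markers summed to 10.9 to 14.3 and 838 to 899, and the 9 neutrophil markers to 0.43 to 2.1 and 7.24 to 9.66, with Mpo and Ly6g listed at 0 in both. The part of these cells in the adipocyte levels of Mmp9, Mmp12 and Mmp19 was not tested. Adamts1 (-4.09, SE 0.23, adjusted p = 3.73e-10) and Adamts5 (-2.80, SE 0.18, adjusted p = 2.21e-09) were lower as well, as were Mmp28 (-1.94) and Mmp11 (-1.32). Mmp15 stood at 0.23 to 0.4 FPKM at P33 and 2.69 to 4.12 in adipocytes. Adamts2, at 10.3 ± 4.13 and 11.35 ± 0.16 FPKM (SD, n = 3), was not called (-0.19, adjusted p = 0.497), and neither were Mmp23, Adamts8 and Adamts19.

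**Figure D5:**
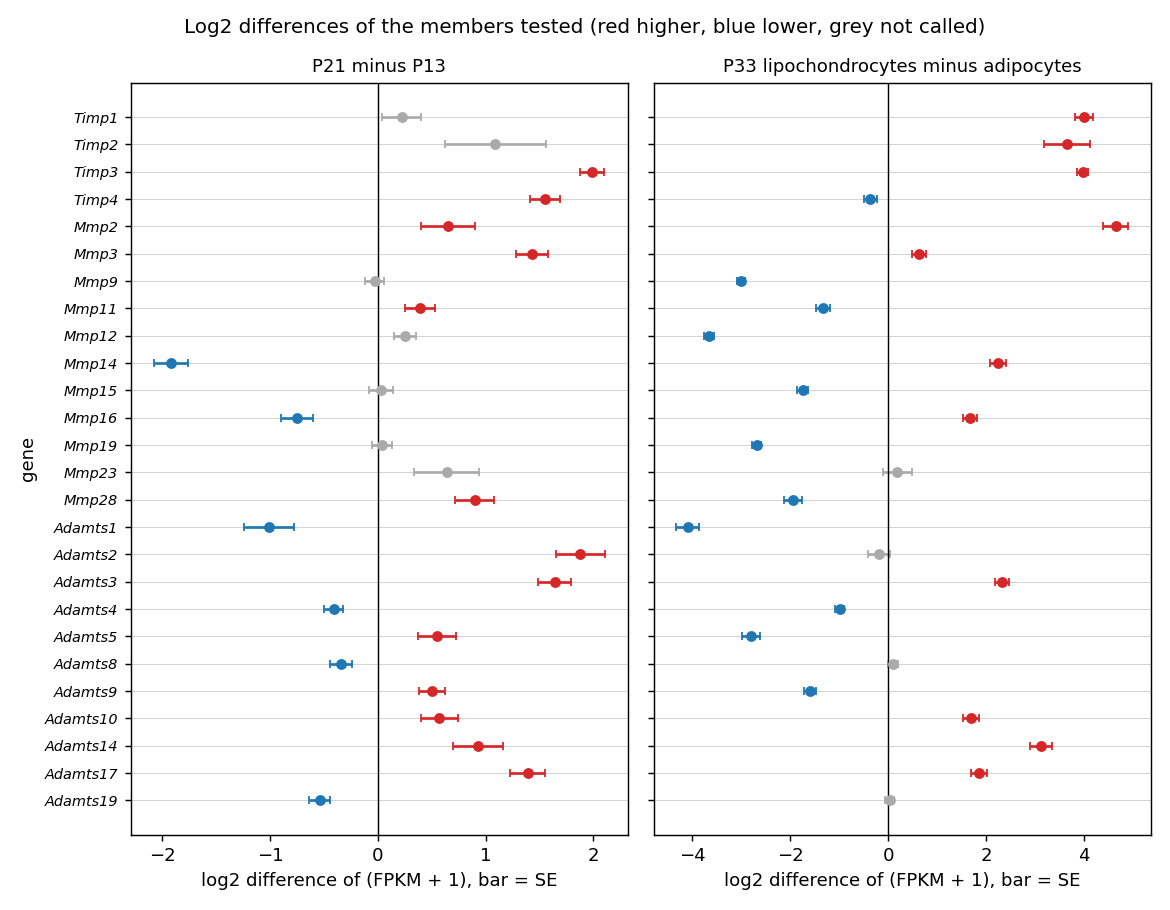
Log2 difference of (FPKM + 1) with its standard error (x axis) for the 26 tested members (y axis), P21 minus P13 on the left and P33 lipochondrocytes minus adipocytes on the right; red is called higher, blue called lower, grey not called. Timp3 is 1.99 higher on the left and 3.97 higher on the right, and Mmp14 is 1.92 lower on the left and 2.24 higher on the right.

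Related genes outside the 3 families were counted by role. The filter favoured a direction against adipocytes here too. Of the genes named below against adipocytes, Adam23 and Plau, under 1 FPKM in every lipochondrocyte group mean, entered through adipocyte libraries alone. A2m, Lrp1b, Reck and Comp, with adipocyte means of 0 to 0.59 FPKM, entered through lipochondrocyte libraries alone. No lean to either side is read from the list counts against adipocytes. As background to these lists, the share of all genes called was 36% higher and 7.04% lower from P13 to P21, with a median of 0.29, and 24% higher and 44.5% lower at P33 against adipocytes, with a median of -0.28. Of 15 other inhibitors and binders, 10 were tested, and 8 rose and 1 fell from P13 to P21, with a median of 2.29. Against adipocytes 7 were higher and 3 lower at P33, with a median of 2.63. A2m, the broad protease trap alpha-2-macroglobulin, rose from 2.44 ± 0.155 to 87 ± 28.3 FPKM from P13 to P21 (4.62, SE 0.29, adjusted p = 1.94e-08) and was listed at 0 in every adipocyte library. Cst3, a cathepsin inhibitor, rose from 2345 ± 256 to 15470 ± 2430 FPKM (2.71, SE 0.18, adjusted p = 2.35e-08), and Sparc, a collagen-binding matrix protein, was higher than in adipocytes by 5.95 (SE 0.20, adjusted p = 8.21e-13). Reck, a membrane inhibitor of Mmp2, Mmp9 and Mmp14 named here after its values were seen, was at 32.6 ± 2.51 FPKM at P33 and 0.59 ± 0.113 in adipocytes (4.40, SE 0.10, adjusted p = 9.66e-15).

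Of 12 activators and proconvertases, 9 were tested, with 4 higher at P21 than at P13 and 0 lower (median 0.29), and with 2 higher and 4 lower at P33 than in adipocytes (median -0.48). These shares were near those of all genes. Htra1, a secreted serine protease, rose from 62.4 ± 9.03 to 236 ± 84.7 FPKM into P21 (1.85, SE 0.35, adjusted p = 0.000738). Plau and its receptor Plaur, which act in plasmin formation on the cell surface, were lower than in adipocytes, with differences of -2.16 (SE 0.13) and -2.42 (SE 0.22). Of 7 ADAMTS-like and related genes, most of whose products lack a protease domain, 6 were tested; Adamtsl1, Adamtsl2 and Adamtsl3 rose into P21 by 1.87, 2.90 and 2.11, and 5 were higher and 1 lower than in adipocytes. Among the 10 listed ADAM sheddases, 9 were tested, with Adam10 higher at P21 (0.38, adjusted p = 0.0466). Against adipocytes 1 was higher and 7 lower, led by Adam23 (-2.87), Adam12 (-2.84) and Adam10 (-1.84). Adam23, like Plau, entered through adipocyte libraries alone, which favoured the lower direction.

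Of 12 cathepsins and other matrix proteases, 11 were tested, 6 rose and 0 fell from P13 to P21, and 3 were higher and 8 lower at P33 than in adipocytes (medians 0.65 and -1.07). The share higher than in adipocytes was near that of all genes. Ctsk, the collagen-cutting cathepsin best known from osteoclasts, stood at 40.8 ± 2.06 FPKM at P13, 125 ± 32.4 at P21, 102.5 ± 17 at P33 and 2.77 ± 0.307 in adipocytes (P33 against adipocytes 4.77, SE 0.16, adjusted p = 9.23e-13). The 6 osteoclast markers, which include Ctsk, summed to 40.4 to 44.3 FPKM at P13, 94.6 to 160.2 at P21 and 89.4 to 123 at P33. At P21, 2 of the 6 had a mean of 1 FPKM or more and Dcstamp and Calcr were listed at 0, and their part in the level of Ctsk was not tested. Fap, a fibroblast serine protease, was higher by 3.30 (SE 0.15) and the lysosomal Ctss lower (-3.55, SE 0.11). Of the 5 receptors and surface partners, 4 were tested: Lrp1, which clears proteases and their complexes with inhibitors from the cell surface, rose from 24.4 ± 6.57 to 71.3 ± 9.84 FPKM into P21 (1.54, SE 0.17, adjusted p = 4.82e-06), and Sdc4 and Lrp1b were higher than in adipocytes by 4.69 (SE 0.15) and 1.43. Of 14 substrates, 13 were tested, with 6 higher and 3 lower at P21 than at P13 (median 0.62). Col1a1 and Col1a2, among the rises, are also on the fibroblast and perichondrium list, whose sum was higher at P21. Comp, a cartilage matrix protein, rose by 6.84 (SE 0.36). The falls, named after their values were seen, were Col2a1 (-2.19, SE 0.17), Vcan (-1.66, SE 0.22) and Eln (-1.02, SE 0.25). Against adipocytes 12 of the 13 substrates were higher and 0 lower, with a median of 6.02, led by Eln (8.85), Comp (8.63) and Bgn (7.83). Acan, Bcan, Col2a1, Col10a1 and Comp, with adipocyte means of 0 to 0.18 FPKM, entered through lipochondrocyte libraries alone, which favoured that direction. Acan and Col2a1 are also on the cartilage list used to check the labels, so no lean is read from this count.

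The 20 members under the filter never exceeded 0.83 FPKM in any library. Besides the 8 cluster genes they were Mmp17, Mmp21, Mmp24 and Mmp25 and Adamts6, Adamts7, Adamts12, Adamts13, Adamts15, Adamts16, Adamts18 and Adamts20. Highest among them were Adamts12 in adipocytes, at 0.8, 0.83 and 0.73 FPKM, and Adamts7 at P8, at 0.34, 0.7 and 0.8. Timp1, Timp3 and Timp4 lie within the spans of synapsin genes on the opposite strand, in Syn1, Syn3 and Syn2, and these hosts reached 4.55, 0.82 and 2.57 FPKM at most.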

How the data were processed

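RNA was sequenced from 18 libraries in 6 groups of 3. FPKM values per gene were deposited by the authors in 1 table. The submitters' processing notes name STAR 2.4.2a and mm10. The quantifier, annotation and strand setting were not given in the sources used here. The deposited total read counts (12461965 to 27640142) and alignment percent values (73.19% to 84.44%) describe depth; FPKM hold no counts, so counting error is unknown. The 13815 genes that reached 1 FPKM or more in 3 or more libraries were tested as log2(FPKM + 1) with limma 3.58.1 in R 4.3.3, with a mean-variance trend, group means over all 18 libraries, a two-sided test and Benjamini-Hochberg adjustment, and were called below 0.05. A fold on this scale understates the change of low genes. The test was checked on simulated data with 200 genes changed by 1 on the log2 scale. It recovered 125 of them for P13 against P8, with 7 false calls, and 156 for P33 against adipocytes, with 12. Changes of this size can thus be missed. The changed genes were drawn from those above about 5 FPKM in the second group of the comparison, with normal noise. Recovery at lower levels, where several members lie, was not measured. Genome positions come from GENCODE M21 (GRCm38), which held 98.9% of the identifiers, and promoter windows from RefSeq. Members with a mean of 5 FPKM or more in any group were described one by one, other tested members by range or in full where called, and up to 3 genes per related list with the largest called differences were named. Members and lists were chosen with earlier results of these data known. Alternatives changed the pseudocount, the filter, the scaling, the groups modelled, the trend and the replicate block, or left out each library in turn.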

Additional observations from a re-analysis of the deposited data

How the results depend on the processing

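Of 66 called differences of members, 45 stayed called in the same direction under every alternative run, 21 were lost under at least 1, and 0 reversed. The members called between P8 and P10 numbered 3, and 5 on rescaling without mitochondrial genes. Between P8 and P13 they numbered 7, and 4 both with a filter of 5 FPKM in 3 libraries and with only these 2 groups modelled. Between P21 and P33 they numbered 6, and 2 with only these 2 groups modelled. The cause was not tested. Leaving out each library in turn gave 2 to 4 for P8 to P10, 5 to 7 for P10 to P13 (9 with all libraries), 6 to 7 for P8 to P13, 16 to 19 for P13 to P21 (19), 6 to 10 for P21 to P33 and 21 to 22 for P33 against adipocytes (22). Deviations of same-numbered libraries from their group means correlated at -0.17 to 0.21. Differently numbered libraries were not set beside them, so whether replicate numbers pair the libraries was not settled. With a replicate block the counts, in the same order, were 4, 10, 8, 19, 7 and 22. Depth as reads per gene is unknown, so changes of members near 1 FPKM have a precision that the 3 libraries alone set.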
